A study of Sus scrofa with 6 samples.

Results

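The dystrophin-glycoprotein complex was followed here through 8 genes chosen by name: DMD, DAG1, SGCA, SGCB, SGCD, UTRN, DTNA and SSPN. Of the 13288 genes listed in the deposited expression table, 7 carried the name of a member, and no row was named SGCB. The 6 samples were heart tissue of male Tibetan minipigs, taken at week 12 after surgery. The sample titles name the heart and no chamber. In 3 sham minipigs the chest was opened without a constriction, and in 3 minipigs the descending aorta was narrowed with sutures (descending aortic constriction, DAC), which puts the heart under pressure load. Both groups had the thoracotomy and its anesthesia. The age of the minipigs is not given in the sources used here. Which ventricle, and which part of its wall, gave the RNA was not stated in the sources used here. Each minipig gave 1 library, named below sham replicates 1 to 3 and DAC replicates 4 to 6. Levels are given in FPKM, a number of sequenced fragments divided by transcript length and by how many fragments were mapped in the library, so that the levels of different genes may be compared per length.

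The complex spans the membrane of the muscle cell and ties the actin cytoskeleton to the laminin of the basement membrane, and so takes up the shear of each contraction. Dystrophin and its paralog utrophin bind actin on the inside, dystroglycan binds laminin on the outside, and the sarcoglycans and sarcospan form a subcomplex in the membrane that holds dystroglycan and dystrophin together. Loss of dystrophin or of a sarcoglycan causes muscular dystrophy and, in many patients, dilated cardiomyopathy.

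The tissue carried the transcripts of ventricular cardiomyocytes. Of 10 cardiomyocyte markers, 7 had a row (MYH6, PLN and TTN had none), and their summed level was 13254 to 14147 FPKM in sham and 12651 to 15555 FPKM in DAC minipigs. Of these 7, RYR2, the calcium release channel, was called (unadjusted P under 0.05 by limma), with a lower mean in DAC. Over all genes tested, 8.51% were called in either direction. None of 7 markers of skeletal muscle had a row. The summed level of 8 fibroblast markers was 503 to 581 FPKM in sham and 719 to 806 FPKM in DAC minipigs, without overlap. Of the 8, 4 were called, all with a higher mean in DAC (LUM, COL1A1, COL1A2 and COL3A1). DCN (log2 fold change -0.01), TCF21 (-0.02), PDGFRA (0.24) and FBLN1 (0.20) were not called, and their groups overlapped. The sums of 6 smooth muscle markers (139 to 173 FPKM in sham, 155 to 178 in DAC), of 8 endothelial markers (120 to 173 in sham, 119 to 168 in DAC) and of 7 leukocyte markers (47.8 to 52.6 in sham, 38.8 to 52.7 in DAC) overlapped between the groups, although 2 of the 6 (CNN1 higher and SMTN lower in DAC), 3 of the 8 (KDR and EMCN higher, VWF lower) and 1 of the 7 (CD163, lower) were called. The summed levels of 3 adipocyte markers (4.73 to 12.7 FPKM in sham, 10.1 to 20.7 in DAC) and of 2 Schwann cell markers (1.92 to 2.04 in sham, 1.89 to 2.61 in DAC) were low in both groups, and CDH19 of the latter was called, with a higher mean in DAC (log2 fold change 0.44, unadjusted P = 0.0277 by limma). The mitochondrially encoded genes took 24.0 to 25.3% of all FPKM in sham, 27.2 and 27.1% in DAC replicates 4 and 6, and 32.8% in DAC replicate 5. In bulk tissue, fewer cells of a type and less RNA per cell cannot be told apart.

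The groups were compared with limma's moderated test on log2(FPKM + 1), over the 11029 genes that reached 1 FPKM in 3 or more samples, and a gene was called at an unadjusted P under 0.05. All 7 members with a row passed this filter. Of them, 1 was called, SGCA, with a lower mean in DAC, where 8.51% of all genes tested were called in either direction and 5.27% with a lower and 3.25% with a higher mean in DAC. The values of the groups did not overlap for 3 of the 7 members (SGCA lower, DMD and SGCD higher in DAC), and this was so for 14.9% of all genes tested (8.91% lower and 6.01% higher in DAC). A log2 fold change from this fit is the difference in mean log2(FPKM + 1), and the added 1 makes it smaller for genes at a few FPKM. The median log2 fold change, DAC minus sham, was 0.08 over the 7 members and -0.02 over all genes. By limma with Benjamini-Hochberg adjustment over all genes tested, no gene had an adjusted P under 0.05 (0 of 11029, with 939 at an unadjusted P under 0.05), and the smallest adjusted P of a member was 0.499. All P-values below are from this fit unless another test is named.

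**Figure D1:**
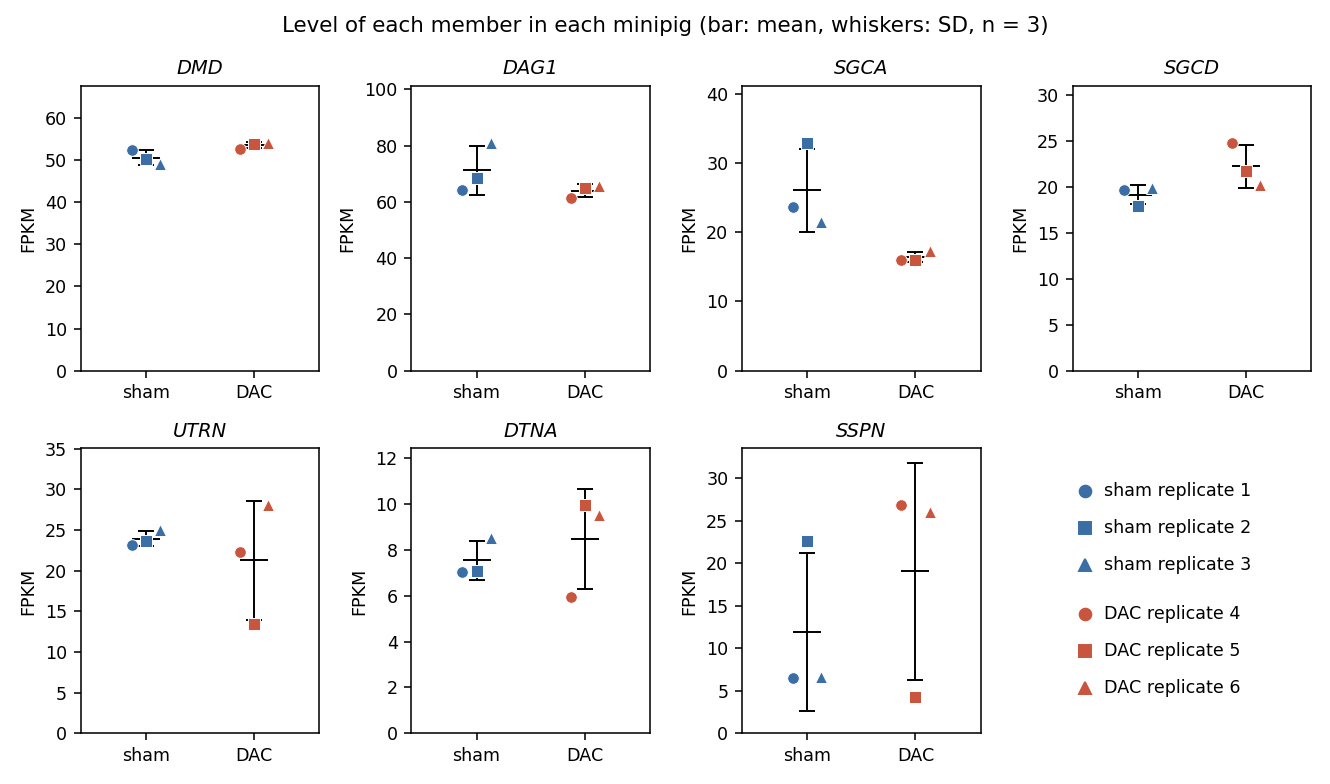
Level of each of the 7 members in FPKM (linear axes from 0, a different scale in each panel) in 3 sham (blue) and 3 DAC (red) minipigs, with the group mean as a bar and the SD as whiskers. SGCA lies lower in all 3 DAC minipigs (16.0 to 17.2 FPKM) than in the 3 sham minipigs (21.5 to 32.9 FPKM), DMD hardly varies, and SSPN spreads over 4.32 to 26.8 FPKM with both groups mixed.

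**Figure D2:**
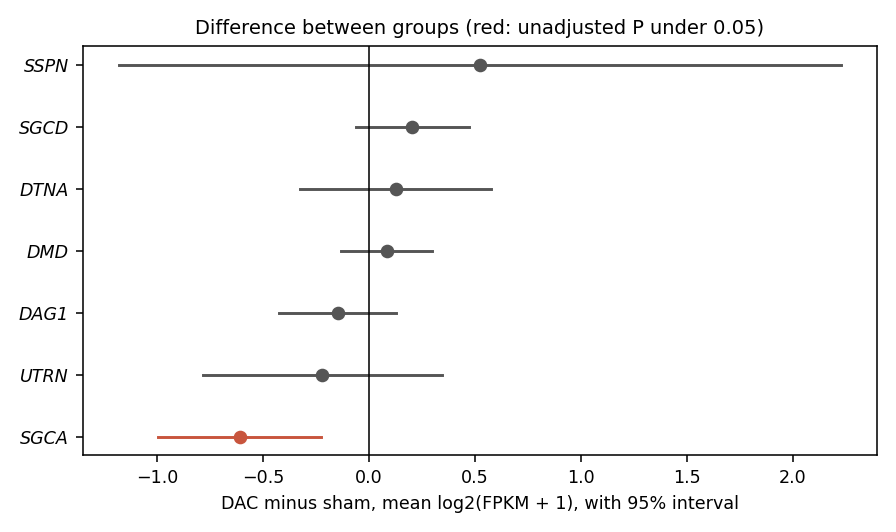
Difference between DAC and sham in mean log2(FPKM + 1) for each member, with the 95% interval of limma's fit. The interval of SGCA (-0.99 to -0.23) lies below 0, those of the other 6 members include 0, and the interval of SSPN is the widest (-1.18 to 2.23).

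SGCA encodes alpha-sarcoglycan, the sarcoglycan that is made in striated muscle and not in smooth muscle. Its row lies on chromosome 12, 26356773 to 26371601, plus strand (susScr11, the build of all positions given here). Its level was 23.7, 32.9 and 21.5 FPKM in sham replicates 1, 2 and 3, and 16.0, 16.0 and 17.2 FPKM in DAC replicates 4, 5 and 6. Every DAC minipig was below every sham minipig, the DAC minipigs lay close together, and sham replicate 2 was the highest. The mean was 26.0 ± 6.05 FPKM (SD, n = 3) in sham and 16.4 ± 0.711 FPKM (SD, n = 3) in DAC, which is 36.9% lower. The log2 fold change was -0.61 with an SE of 0.16 and a 95% interval of -0.99 to -0.23 (unadjusted P = 0.00692, adjusted P = 0.499 by limma). SGCA was called in all 14 alternative processings, with log2 fold changes from -0.73 to -0.44, unadjusted P from 0.00427 to 0.0286 and adjusted P from 0.438 to 0.810. The summed level of the cardiomyocyte markers, given above, overlapped between the groups. Of the 7, 3 had a lower mean on the log2 scale in DAC, RYR2 (-0.41) being called, and 4 a higher one. The part of cardiomyocyte content in the level of SGCA was not tested. Without sham replicate 2, the highest of the sham minipigs, the log2 fold change was -0.44 (unadjusted P = 0.00991). The nearest gene in the table is COL1A1, 7488 bases away and not overlapping, whose level was 78.5 to 102 FPKM in sham and 137 to 189 FPKM in DAC, a difference of the opposite sign.

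SGCD encodes delta-sarcoglycan, which is made in striated and in smooth muscle (chromosome 16, 66452416 to 66887924, minus strand). Its level was 19.6, 17.9 and 19.9 FPKM in sham and 24.8, 21.7 and 20.2 FPKM in DAC. The groups did not overlap, but the lowest DAC and the highest sham minipig were close to each other. The mean was 19.1 ± 1.05 FPKM in sham and 22.2 ± 2.33 FPKM in DAC (SD, n = 3 each), with a log2 fold change of 0.20, an SE of 0.11 and an unadjusted P of 0.116 by limma (95% interval -0.06 to 0.47), and SGCD was called in none of the 14 alternatives. Without DAC replicate 4, the highest of the 6, the log2 fold change was 0.12. The row covers 42.1% of the span of the gene in RefSeq, and leaves out its 5′ part.

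The level of SGCD relative to SGCA within a minipig does not depend on how samples are scaled to each other. The ratio was 0.828, 0.545 and 0.925 in sham and 1.54, 1.36 and 1.17 in DAC. SGCA was thus the more abundant per length in every sham minipig and SGCD in every DAC minipig. The geometric mean of the ratio was 1.80-fold higher in DAC, a log2 difference of 0.85, and the exact two-sided permutation test gave P = 0.1, the smallest P that 3 samples against 3 allow. Leaving out each sample in turn, the log2 difference stayed between 0.62 and 1.01. The sums of the smooth muscle and fibroblast markers are given above, and the part of these cells in the ratio was not tested.

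**Figure D3:**
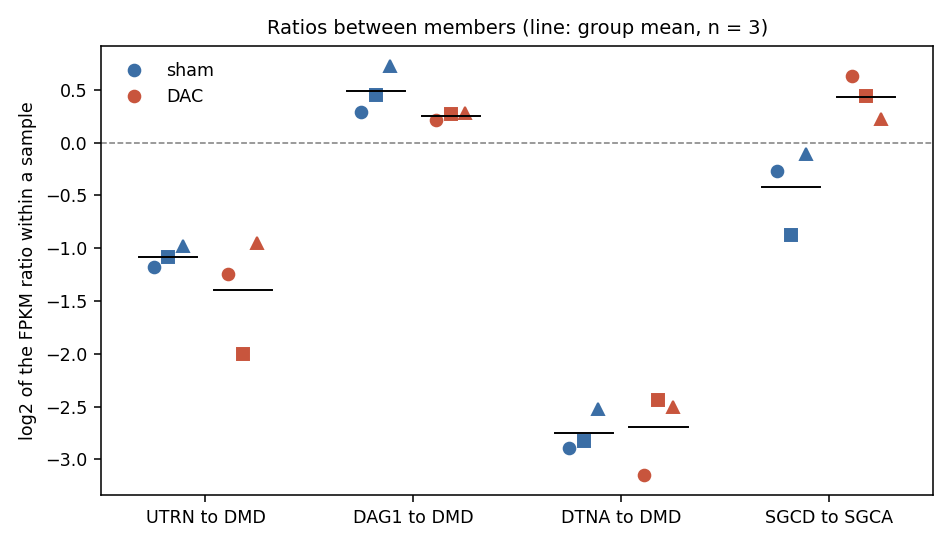
Log2 of the FPKM ratio of 4 pairs of members within each sample, for 3 sham (blue) and 3 DAC (red) minipigs, with a line at each group mean and a dashed line where the levels are equal. The SGCD to SGCA ratio lies below equality in all 3 sham and above it in all 3 DAC minipigs, and the DTNA to DMD and UTRN to DMD ratios overlap between the groups.

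SGCB, beta-sarcoglycan, the partner of delta-sarcoglycan in the core of the subcomplex, was not measured under its own name. A row named LRRC66 (chromosome 8, 39106912 to 39148747, minus strand) covers 99.95% of the RefSeq gene SGCB and also 90.2% of its neighbour LRRC66. That row was at 12.7, 12.8 and 14.3 FPKM in sham and 16.0, 13.4 and 14.2 FPKM in DAC, with overlapping groups and a log2 fold change of 0.12 (SE 0.11, unadjusted P = 0.314 by limma). The values belong to the row, and the fragments of the 2 genes within it cannot be told apart.

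SSPN encodes sarcospan, the tetraspanin-like protein of the sarcoglycan subcomplex (chromosome 5, 47548314 to 47609335, minus strand). Its level was 6.44, 22.6 and 6.67 FPKM in sham and 26.8, 4.32 and 26.0 FPKM in DAC. Low and high values occurred in both groups, with nothing between 6.67 and 22.6 FPKM, and the highest minipig was 6.20 times the lowest. Its within-group SD on the log2(FPKM + 1) scale was 1.17, against a median of 0.18 over all genes tested, and 99.7% of the genes had a smaller one. The mean was 11.9 ± 9.25 FPKM in sham and 19.0 ± 12.7 FPKM in DAC (SD, n = 3 each), with a log2 fold change of 0.52 and an SE of 0.72 (unadjusted P = 0.493 by limma, 95% interval -1.18 to 2.23). It moved widely when a minipig was left out. Leaving out DAC replicate 4 gave 0.12, and leaving out DAC replicate 6 gave 0.14. The value was 0.24, 1.07 and 0.26 when sham replicates 1, 2 and 3 were left out in turn (smallest unadjusted P = 0.185). Leaving out DAC replicate 5 gave 1.31 (unadjusted P = 0.0399), and in no other such fit was SSPN called.

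MYL4, the atrial light chain of myosin and 1 of 2 atrial markers with a row (of 4 listed), was at 2.03, 3.79 and 1.09 FPKM in sham and 9.22, 0.780 and 17.6 FPKM in DAC. The other, SLN, the inhibitor of the calcium pump in atria, was at 0.278, 1.01 and 0.403 FPKM in sham and 1.44, 0.932 and 9.83 FPKM in DAC. For SSPN, for MYL4 and for SLN alike, the highest sham minipig was replicate 2 and the lowest DAC minipig was replicate 5. The highest DAC minipig was replicate 4 for SSPN, but replicate 6 for MYL4 and for SLN. The summed level of both atrial markers was 1.49 to 4.80 FPKM in sham and 1.71 to 27.4 FPKM in DAC, and their part in the spread of SSPN was not tested. The markers MYL7 and NPPA had no row.

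**Figure D4:**
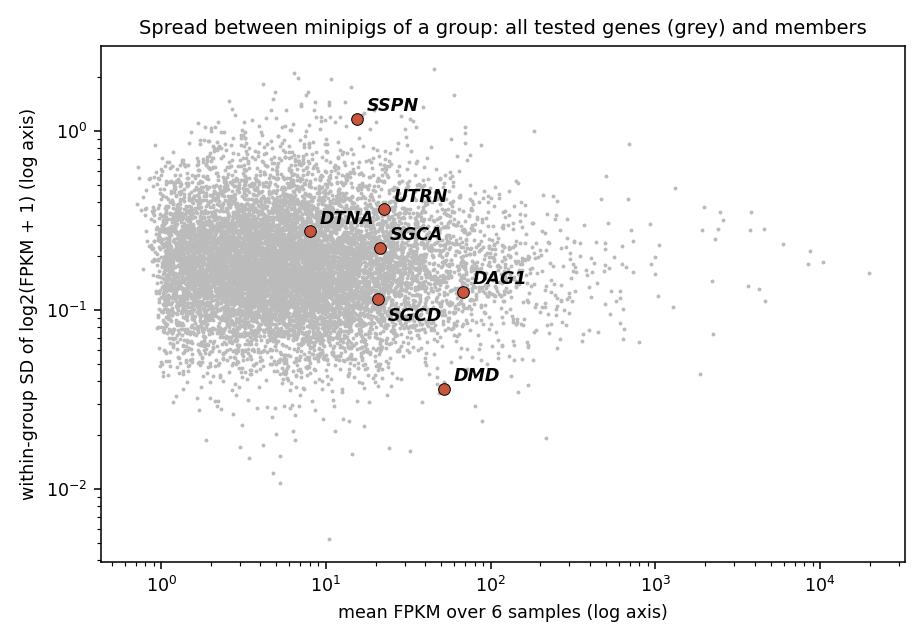
Within-group SD of log2(FPKM + 1) against the mean FPKM over 6 samples (both axes logarithmic) for the 11029 genes tested (grey) and the 7 members (red). DMD lies near the lower edge of the cloud (SD 0.036) and SSPN near its upper edge (SD 1.17), with the other 5 members between them.

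DMD encodes dystrophin, the rod that links actin to beta-dystroglycan (chromosome X, 27028223 to 29181689, minus strand). Its level was 52.5, 50.2 and 49.1 FPKM in sham and 52.7, 53.9 and 54.1 FPKM in DAC. The 6 minipigs lay within 1.10-fold of each other, and although the groups did not overlap, sham replicate 1 and DAC replicate 4 were nearly equal. The mean was 50.6 ± 1.71 FPKM in sham and 53.6 ± 0.745 FPKM in DAC (SD, n = 3 each), with a log2 fold change of 0.08, an SE of 0.09 and an unadjusted P of 0.396 by limma (95% interval -0.13 to 0.30). Its within-group SD was 0.036, and 0.562% of the genes tested had a smaller one. limma draws the variance of such a gene up toward that of other genes at its level. With the gene's own variance alone, the unadjusted P was 0.0507. The row covers 82.1% of the RefSeq gene and leaves out its start, and an unnamed row on the same strand, under 1 FPKM in every minipig, overlaps it.

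UTRN encodes utrophin, which takes the place of dystrophin at the membrane where dystrophin is missing (chromosome 1, 20511240 to 21048787, minus strand). Its level was 23.2, 23.7 and 25.0 FPKM in sham and 22.3, 13.5 and 28.0 FPKM in DAC. The sham minipigs were close together, while the DAC group held both the lowest and the highest value of the 6. The mean was 23.9 ± 0.925 FPKM in sham and 21.3 ± 7.32 FPKM in DAC (SD, n = 3 each), with a log2 fold change of -0.22, an SE of 0.24 and an unadjusted P of 0.388 by limma. The sign turned without DAC replicate 5, the sample with the highest mitochondrial share (log2 fold change 0.06). It held in the other 13 alternatives, among them the fit without the mitochondrially encoded genes. The part of the mitochondrial share in the low value of DAC replicate 5 was not tested. Without DAC replicate 6 the log2 fold change was -0.44 (unadjusted P = 0.0798). DMD, at 53.9 FPKM in DAC replicate 5, was not low there. The UTRN to DMD ratio was 0.442, 0.472 and 0.508 in sham and 0.423, 0.250 and 0.518 in DAC, with overlapping groups and a log2 difference of -0.32 (P = 0.5, exact two-sided permutation test). Without DAC replicate 5 that difference was -0.015.

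DTNA encodes alpha-dystrobrevin, a relative of dystrophin that binds it and carries syntrophins (chromosome 6, 118333733 to 118753513, plus strand). It was the least abundant member, at 7.05, 7.06 and 8.53 FPKM in sham and 5.95, 9.94 and 9.54 FPKM in DAC. DAC replicate 4 was the lowest of all 6 minipigs, and the other DAC minipigs were the highest. The log2 fold change was 0.12 with an SE of 0.19 (unadjusted P = 0.534 by limma), but it ranged from 0.006 (DAC replicate 5 left out) to 0.33 (DAC replicate 4 left out) over the 6 fits that leave out a minipig. It was 0.034 with DAC replicate 6 and 0.21 with sham replicate 3 left out, and the fit lacking DAC replicate 4 was alone in passing the threshold (unadjusted P = 0.0388). The DTNA to DMD ratio differed by 0.053 on the log2 scale (P = 0.8, exact two-sided permutation test), with overlapping groups, and this sign turned when sham replicate 1, DAC replicate 5 or DAC replicate 6 was left out.

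DAG1 encodes dystroglycan, whose alpha part binds laminin and whose beta part spans the membrane (chromosome 13, 32029329 to 32092453, plus strand). It was the most abundant member, at 64.2, 68.5 and 81.0 FPKM in sham and 61.2, 65.0 and 65.5 FPKM in DAC. The groups overlapped, with sham replicate 3 above all others. The mean was 71.2 ± 8.73 FPKM in sham and 63.9 ± 2.33 FPKM in DAC (SD, n = 3 each), with a log2 fold change of -0.15, an SE of 0.12 and an unadjusted P of 0.246 by limma. Without sham replicate 3 the log2 fold change was -0.053, and over all samples left out in turn it ran to -0.22. Relative to DMD in the same minipig, DAG1 was at 1.22, 1.37 and 1.65 in sham and at 1.16, 1.20 and 1.21 in DAC. These ratios did not overlap, although sham replicate 1 lay just above DAC replicate 6. The log2 difference was -0.23 (P = 0.1, exact two-sided permutation test, the smallest P possible), and without sham replicate 3 it was -0.12.

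Per length, the order of the mean levels over all 6 minipigs was DAG1, DMD, UTRN, SGCA, SGCD, SSPN and DTNA. DAG1 exceeded DMD in 6 of 6 minipigs, by 1.29-fold in the geometric mean, and DMD exceeded UTRN in 6 of 6, by 2.36-fold. From UTRN on, each member exceeded the next in 3 of 6 minipigs, so that the order of these neighbours did not hold over all minipigs. For SGCA and SGCD the split followed the groups, with SGCA higher in every sham and SGCD in every DAC minipig. DAG1 and DMD lay above 95.5% and 93.9% of the genes tested. The members together summed to 184 to 223 FPKM per minipig, between 0.060% and 0.077% of all FPKM, and the lowest share was in DAC replicate 5.

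The genes most like DMD over the 6 minipigs were ELP3, RLF and IARS1, with root mean square differences of 0.019, 0.024 and 0.028 between their centred log2(FPKM + 1) values and those of DMD. Like DMD, these genes hardly varied: 0.816%, 1.24% and 2.89% of the genes tested had a smaller within-group SD. Unlike DMD, ELP3 and IARS1 overlapped between the groups. The genes most like DAG1 were UBAC2, SLC4A2 and KIAA1143, with differences of 0.018, 0.041 and 0.042. These 6 points are a description of the same 6 libraries.

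The other genes of the complex and of its surroundings were taken from 7 lists by role, each read from the same fit. In that fit, 8.51% of all genes tested were called (5.27% lower and 3.25% higher in DAC). Of 12 further subunits and bound proteins, 4 had a row, all 4 had a higher mean on the log2 scale in DAC and 0 were called. SNTB1, beta-1-syntrophin, an adaptor for signaling proteins, was at 1.31, 1.40 and 1.18 FPKM in sham and 1.80, 1.82 and 1.52 FPKM in DAC. The groups did not overlap, and the log2 fold change was 0.24 with an SE of 0.11 (unadjusted P = 0.0673 by limma). Without the added 1, the mean FPKM of SNTB1 in DAC was 1.32 times that in sham. SGCE, the sarcoglycan found in many tissues, was at 1.74 to 2.31 FPKM in sham and 1.62 to 3.41 FPKM in DAC (log2 fold change 0.22), and it was called without DAC replicate 5 (log2 fold change 0.43, unadjusted P = 0.0225). SNTB2 (0.10) and CAV3, the caveolin of muscle (0.08), had overlapping groups as well. SGCZ, SNTG1, SNTG2, DTNB, DRP2 and NOS1 were among those with no row of their name.

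Of 10 matrix ligands, 7 were tested and 1 was called, with a median log2 fold change of -0.02 over the 7. BGN, biglycan, a small proteoglycan that binds the sarcoglycans and dystroglycan, was at 31.5, 25.6 and 29.6 FPKM in sham and 67.5, 67.2 and 34.0 FPKM in DAC. All DAC minipigs were above all sham minipigs, and DAC replicate 6 was far nearer to the sham group than the others. The log2 fold change was 0.88 with an SE of 0.26 (unadjusted P = 0.0125, adjusted P = 0.508 by limma), and the unadjusted P was 0.0580 with the gene's own variance. Fibroblasts also make biglycan. The summed fibroblast markers were higher in every DAC than in every sham minipig, but DCN, TCF21, PDGFRA and FBLN1 overlapped, as given above. The part of fibroblasts in the difference was not tested. LAMA4 (0.25), HSPG2, which encodes perlecan (-0.19), and LAMC1 (0.08) had overlapping groups and were not called. LAMA4 was called without DAC replicate 5 (0.38, unadjusted P = 0.0483) and HSPG2 without DAC replicate 6 (-0.32, unadjusted P = 0.0381). The alpha-2 chain of laminin, LAMA2, had no row of its name. The larger of 2 unnamed rows at its RefSeq position was at 65.7, 59.8 and 54.9 FPKM in sham and 55.5, 45.9 and 58.2 FPKM in DAC, with overlapping groups (log2 fold change -0.18, unadjusted P = 0.213 by limma).

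A chain of enzymes builds the glycan by which alpha-dystroglycan binds laminin. Of 18 listed, 12 were tested, 0 were called, 9 had a lower and 3 a higher mean on the log2 scale in DAC, and their log2 fold changes ran from -0.30 to 0.12 with a median of -0.08. DPM2, a subunit of the enzyme that makes the mannose donor (-0.30), B3GALNT2 (-0.21) and POMGNT1 (-0.20) had overlapping groups.

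Of 9 cytoskeletal partners on the inner side, 8 were tested and 1 was called. PLEC, plectin, which ties desmin filaments to dystrophin and dystroglycan, was at 87.8, 81.4 and 90.5 FPKM in sham and 67.3, 56.4 and 66.9 FPKM in DAC. The groups lay well apart, and the log2 fold change was -0.44 with an SE of 0.11 (unadjusted P = 0.00532, adjusted P = 0.482 by limma). DES, desmin, the intermediate filament of muscle, was at 855 to 885 FPKM in sham and 834 to 1188 FPKM in DAC (log2 fold change 0.20, unadjusted P = 0.202), and it was called without DAC replicate 6 (0.33, unadjusted P = 0.0421). SYNC (0.07) and DTNBP1 (-0.07) overlapped, and their signs turned when a sample was left out.

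The integrin link is the other tie between the cardiomyocyte and laminin. All 11 of its genes were tested, 0 were called, and the median log2 fold change was -0.02. LIMS2 (-0.32), ITGA7, the laminin-binding integrin of muscle (-0.25), TLN2 (-0.20) and FERMT2 (0.16) had the smallest P, and all had overlapping groups. ITGA7 was called without DAC replicate 5 (-0.42, unadjusted P = 0.0436).

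Of 12 genes of membrane repair and of the calpains, 11 were tested and 2 were called, both with a higher mean in DAC. Over all genes tested, 8.51% were called in either direction and 3.25% with a higher mean in DAC. MYOF, myoferlin, a relative of dysferlin, was at 1.53, 2.73 and 2.23 FPKM in sham and 3.42, 3.81 and 3.36 FPKM in DAC. The groups did not overlap, and the log2 fold change was 0.54 with an SE of 0.16 (unadjusted P = 0.0113, adjusted P = 0.505 by limma). Without the added 1, the mean FPKM of MYOF in DAC was 1.63 times that in sham. ANXA2, annexin A2, was at 9.14, 10.3 and 12.1 FPKM in sham and 11.4, 15.4 and 20.6 FPKM in DAC, with overlapping groups and a log2 fold change of 0.52 (SE 0.21, unadjusted P = 0.0438). It was no longer called without sham replicate 1 (0.43), sham replicate 2 (0.50), DAC replicate 5 (0.52) or DAC replicate 6 (0.32). S100A10, the partner of annexin A2 (0.29), and ANXA1 (0.25) had overlapping groups. MMP2, a protease that cleaves beta-dystroglycan, was at 23.9, 25.3 and 28.3 FPKM in sham and 30.0, 28.4 and 36.4 FPKM in DAC. The groups met almost without a gap, and the log2 fold change was 0.28 with an SE of 0.13 (unadjusted P = 0.0682 by limma). MMP9 stayed at or below 0.590 FPKM and was not tested.

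**Figure D5:**
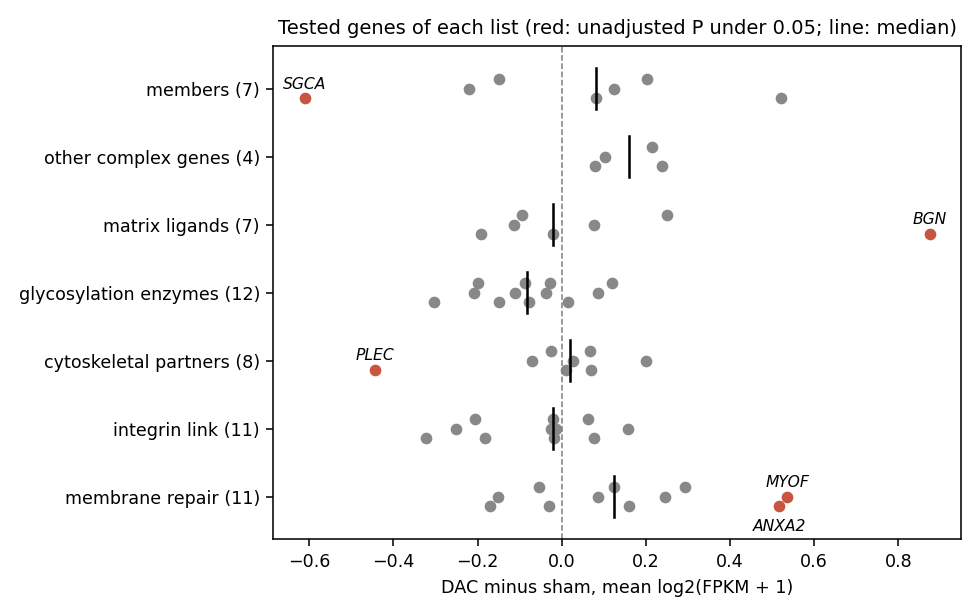
Log2 fold change, DAC minus sham, of each tested gene of the members and of 6 lists of partners, with the number of genes tested in parentheses and a line at the list's median. The genes called at an unadjusted P under 0.05 (red) are SGCA, BGN, PLEC, MYOF and ANXA2, and the medians lie between -0.08 and 0.16.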

How the data were processed

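The members, the lists and the tests were chosen with earlier results of these data known. The authors deposited 1 table of FPKM, with a column for each of the 6 minipigs and no pooling. Per the labels, total RNA was extracted with TRIzol and a NEBNext Ultra kit was used for the libraries. The submitters' processing notes name HISAT2 and susScr11. The program that made the FPKM values and its use of strand are not given in the sources used here. In the deposited values every gene reached at least 0.500 FPKM in some sample. FPKM sums were 281377 to 308771 per sample. Depth is unknown: no steps of whole reads were seen (at most 6 of 5977 genes shared a ratio between samples), so precision rests on the spread between minipigs.

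Values were analysed as log2(FPKM + 1) with limma 3.58.1 in R 4.3.3, with a variance trend, no covariates and Benjamini-Hochberg adjustment. Ratios used FPKM within a sample and exact permutation tests in SciPy 1.17.1. The fit was tested on simulated data. Rows without a member's name were matched by position to RefSeq genes of Sscrofa11.1, the same build. No sequences were printed, as none were used here. The genes named are all members, all further subunits, up to 4 genes of each other list with the smallest P, and the 3 genes most like DMD and DAG1. Some genes that this rule names are not reported here. Each choice was changed in turn: a filter of 5 FPKM or none, a pseudocount of 0.1, median scaling, quantile normalization, leaving out mitochondrially encoded genes, each gene's own variance, sample weights, leaving out each sample, and thresholds of P under 0.01 and adjusted P under 0.05.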

Additional observations from a re-analysis of the deposited data

How the results depend on the processing

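No paired analysis was possible because the sham and DAC samples came from different minipigs. SGCA kept its call in all 14 processings. The number of genes called was 939, of which 61.9% were lower in DAC. It was 579 (71.5% lower) with a minimum of 5 FPKM, 218 at P under 0.01, 0 at an adjusted P under 0.05, and 600 to 1029 when each sample was left out (600 without sham replicate 1, 50.8% lower without DAC replicate 5). The share lower in DAC was 52.8% with median scaling, 52.9% with quantile normalization and 44.8% without the mitochondrially encoded genes, with medians of all genes between -0.04 and 0.02. The number of members called was 0 at an adjusted P under 0.05 and 1 to 2 when each sample was left out. With each gene's own variance, 1 further subunit (SNTB1), 0 matrix ligands and 1 gene of membrane repair were called. With a minimum of 5 FPKM, 1 gene of membrane repair was called. MMP2, and so 1 dystroglycan protease, was called with median scaling, quantile normalization, without the mitochondrially encoded genes and without DAC replicate 5. Leaving out each sample gave 0 to 1 further subunits, 1 to 2 matrix ligands, 1 to 2 cytoskeletal partners, 0 to 1 genes of the integrin link, 1 to 3 genes of membrane repair and 0 to 1 proteases. It gave log2 fold changes of -0.44 to 0.061 for UTRN, -0.12 to 0.019 for DTNBP1, -0.030 to 0.18 for SYNC and -0.076 to 0.28 for the DTNA to DMD ratio. The causes were not tested. With 3 minipigs a group, no exact test of a ratio can pass 0.05, and the median SE of a log2 fold change over all genes was 0.14.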

Other observations

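By the same measure of likeness, applied to the other members after their values were seen, the gene most like UTRN was LTBP4, which binds latent TGF-beta in the matrix, with a root mean square difference of 0.035 on the log2(FPKM + 1) scale over the 6 minipigs. LTBP4 was at 118, 127 and 137 FPKM in sham and at 120, 75.7 and 149 FPKM in DAC, and like UTRN it was lowest in DAC replicate 5 and highest in DAC replicate 6. The gene most like SGCA was WRNIP1 (0.094), at 23.0, 26.8 and 21.8 FPKM in sham and 15.2, 15.0 and 16.6 FPKM in DAC. The gene most like SSPN was NEU3, a sialidase of the plasma membrane, with a difference of 0.36. NEU3 was at 5.47, 12.5 and 4.98 FPKM in sham and 10.6, 2.81 and 13.7 FPKM in DAC. The within-group SD was 1.17 for SSPN, 0.22 for SGCA and 0.36 for UTRN, so these differences are not on a like scale. These genes were picked for their likeness over the same 6 libraries, so the likeness is a description.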
